A study of Mus musculus with 24 samples.

Results

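The genes described here encode heat shock proteins, the chaperones that bind unfolded proteins. They were the 10 genes of a fixed list of names: Hspa1a, Hspa1b, Hspa8, Hsp90aa1, Hsp90ab1, Hsph1, Dnajb1, Hspd1, Hspe1 and Hsf1. A gene feature with the right symbol was found for 7 of the 10, with 1 feature each, out of 22206 gene features. Features that carry several symbols were not matched. Hspa8, Hsp90ab1 and Hsf1 were not analysed here. Array signals came from RAW264.7 cells, a mouse macrophage line transformed by a leukemia virus, grown for no more than 20 passages. The 8 groups of 3 arrays were low PAC + LPS, medium PAC + LPS, high PAC + LPS and LPS, and their counterparts without LPS, namely low PAC, medium PAC, high PAC and mock-treated control cells. PAC are proanthocyanidins, polymers of flavan-3-ol units, purified here from grape pomace at a low, medium or high mean degree of polymerization, and all 3 were given at 15 µg/mL. LPS (lipopolysaccharide, a bacterial cell wall component that activates macrophages through TLR4) was given at 500 ng/mL, 30 minutes after PAC, and RNA was collected after 6 h.

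In the cytosol, HSP70 proteins hold exposed hydrophobic stretches of client proteins, J-domain proteins such as DNAJB1 deliver the client and start ATP hydrolysis, and HSP110 proteins such as HSPH1 exchange the nucleotide to release it. HSP90 proteins then complete the folding of kinases and receptors. Upon heat or other protein damage, the transcription factor HSF1 binds heat shock elements, alternating GAA and TTC units spaced by a pair of bases, and drives Hspa1a, Hspa1b, Dnajb1, Hsph1 and Hsp90aa1. Hspd1 and Hspe1 encode the chaperonin HSP60 and its lid HSP10, which fold proteins in the mitochondrial matrix, so the name cytosolic does not cover them.

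Hspa1a and Hspa1b are neighbouring copies of the inducible HSP70 gene on chromosome 17 (GRCm38.p6, 34969359-34972156 and 34956429-34959238, minus strand for both), and their promoters are shown because they are almost the same and because these 2 genes gave the largest differences below. The 250 bases before the start sites in RefSeq differed at 3 positions. Capitals mark a GAANNTTC pair of units, 104 to 97 bases before the start of both genes.
Hspa1a, chr17:34972157-34972406, minus strand: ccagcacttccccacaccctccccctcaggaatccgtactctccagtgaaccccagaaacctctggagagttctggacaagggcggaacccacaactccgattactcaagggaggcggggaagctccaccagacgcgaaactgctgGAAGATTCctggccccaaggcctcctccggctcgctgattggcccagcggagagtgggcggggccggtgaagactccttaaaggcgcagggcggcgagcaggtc
Hspa1b, chr17:34959239-34959488, minus strand: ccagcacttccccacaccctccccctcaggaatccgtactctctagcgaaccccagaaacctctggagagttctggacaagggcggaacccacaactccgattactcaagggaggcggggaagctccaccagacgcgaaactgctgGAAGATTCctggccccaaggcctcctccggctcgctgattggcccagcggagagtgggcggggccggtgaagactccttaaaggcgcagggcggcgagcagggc

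Hspd1 and Hspe1 lie head to head on chromosome 1. RefSeq gave 2 start sites for Hspd1, of which 1 lies inside Hspe1, and its window held no pair of units. The 215 bases between the other Hspd1 start and the Hspe1 start are shown because they lie before both genes. Capitals mark 4 alternating units in a row, 89 to 72 bases before the Hspe1 start.
Hspe1, chr1:55087933-55088147, plus strand: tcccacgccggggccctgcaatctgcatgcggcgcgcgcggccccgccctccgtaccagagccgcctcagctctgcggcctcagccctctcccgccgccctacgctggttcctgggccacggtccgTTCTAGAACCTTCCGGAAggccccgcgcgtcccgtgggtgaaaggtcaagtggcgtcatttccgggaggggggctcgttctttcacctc

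For Hsph1 on chromosome 5, a run of 3 units lay 37 to 49 bases after a start site and is shown in capitals.
Hsph1, chr5:149636287-149636316, minus strand: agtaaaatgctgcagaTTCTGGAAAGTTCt

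Of the 10 listed genes, 6 had promoter windows in the RefSeq table (250 bases before to 50 after a start, 9 windows). Hspa1a, Hspa1b, Hsph1, Hspd1 and Hspe1 held at least 1 pair of units, written GAANNTTC or TTCNNGAA on either strand, and Dnajb1 held none. These genes are not independent, since the Hspa1a and Hspa1b windows are 98.7% identical and Hspd1 and Hspe1 share 1 run of units. A pair of either kind, overlaps allowed, was found in 15.1% of the 32851 windows of all genes. That is a share of windows and not of genes. A run of 3 units (GAANNTTCNNGAA or TTCNNGAANNTTC) was found in 0.603% of them. These matches are letters in a window and say nothing about binding.

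Signals are on the deposited log2 scale, on which 8242 values lay above 16, the limit of a 16-bit scanner. Differences are therefore given on that scale and not as folds, and no gene's signal is set against another's. Of 11 measured macrophage markers, 10, among them Adgre1 and Csf1r, lay above the silent level of 4.73 in every group. That level is the 95th percentile of olfactory and vomeronasal receptor features. Negative control features had array medians from 4.76 to 5.12, above that level, so passing it does not by itself show expression. Measured markers of lymphocytes (0 of 7), neutrophils (0 of 7) and epithelium (0 of 6) did not exceed it in every group, and 1 of 5 fibroblast markers did (Col1a1). Array medians over all gene features lay between 4.87 and 5.06. Among arrays without LPS, 3 stood apart in Il1b, the gene of an inflammatory cytokine: high PAC replicate 2 at 11.92, high PAC replicate 3 at 9.62 and medium PAC replicate 3 at 9.39, against 4.86 to 6.40 on the other 9. All 7 measured heat shock genes were above the silent level in every group. Tests were made with limma over all features, and a gene was called changed at a Benjamini-Hochberg adjusted p under 0.05. Replicates carry only numbers, so the p-values measure the spread between these samples, which may be technical. The RNA is bulk, so fewer cells that express a gene and less of its RNA per cell cannot be told apart.

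**Figure D1:**
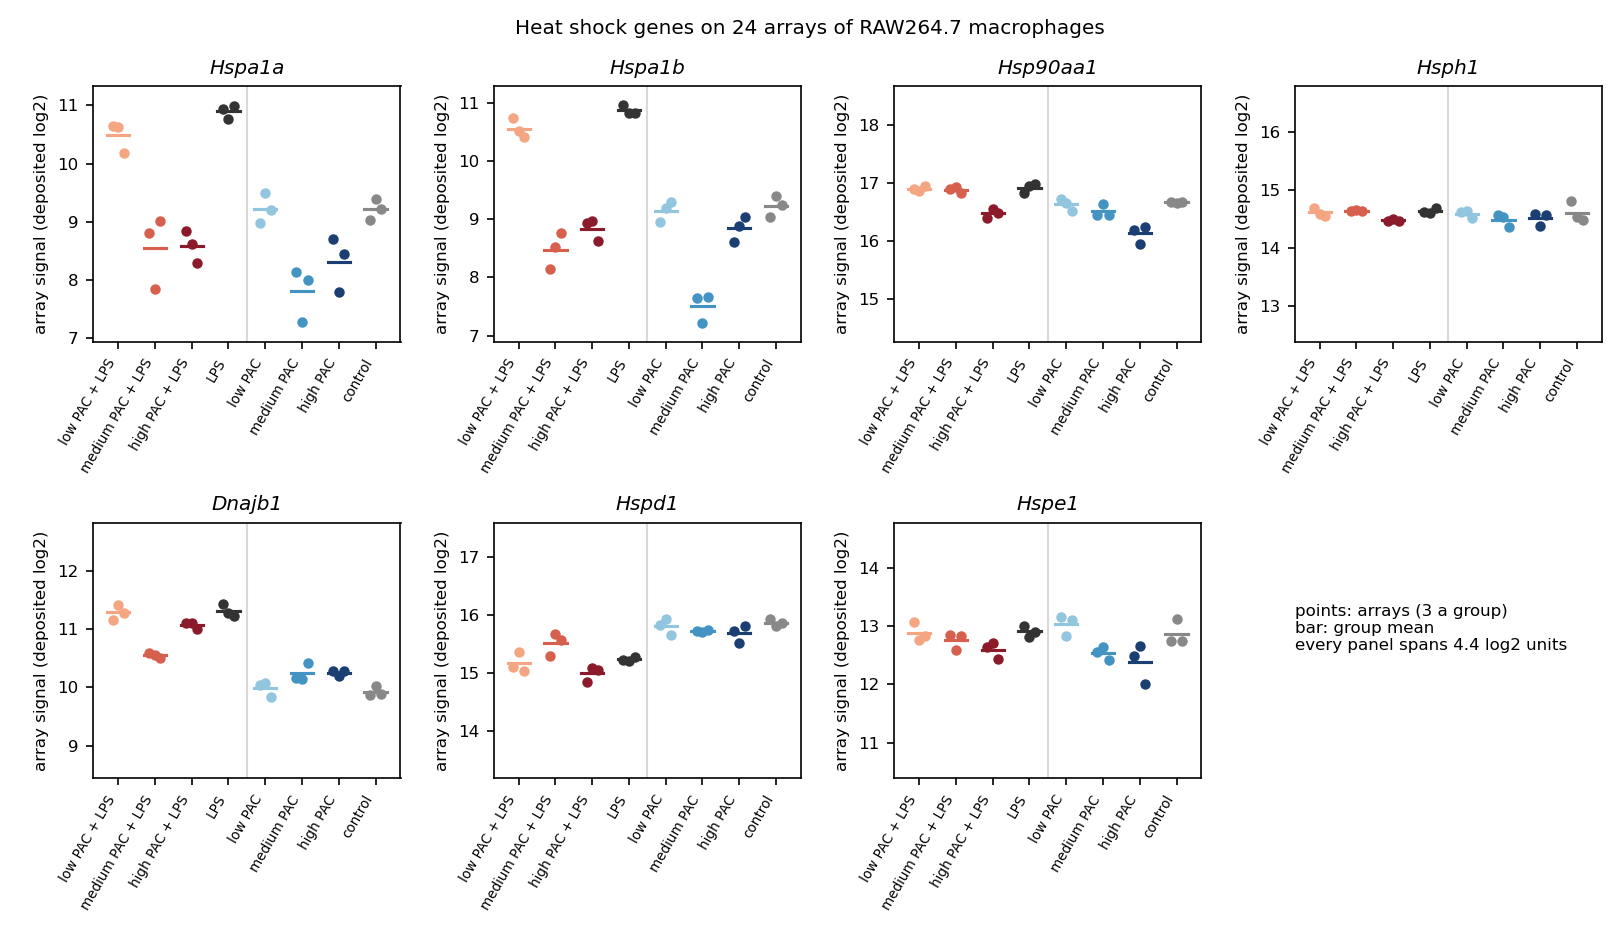
Array signal of the 7 measured heat shock genes (y axis, deposited log2 scale) in the 8 groups (x axis), with LPS left of the grey line and without LPS right of it. Points are arrays (3 a group), bars are group means, and every panel spans the same range. Hspa1a and Hspa1b stood highest with LPS and with low PAC + LPS, while Hsph1 stayed between 14.37 and 14.80 on all 24 arrays.

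LPS alone raised both inducible HSP70 genes and their J-domain partner and lowered mitochondrial HSP60. Hspa1a gave 10.94, 10.76 and 10.99 on the LPS arrays, against 9.02, 9.39 and 9.22 on the control arrays. Hspa1b gave 10.96, 10.84 and 10.83 with LPS, against 9.04, 9.40 and 9.24 in control cells. Both copies were well separated between the groups. The differences were 1.69 (95% interval 1.09 to 2.29, adjusted p = 6.22e-05, limma) for Hspa1a and 1.65 (1.28 to 2.01, adjusted p = 1.31e-07) for Hspa1b. Near-identical copies may bind each other's probes, and how far the 2 features measure separate transcripts was not tested.

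Dnajb1, which stimulates the ATPase of HSP70, gave 11.44, 11.28 and 11.23 with LPS, against 9.87, 10.02 and 9.89 in control cells. The lowest LPS array lay more than 1 unit above the highest control array, and the difference was 1.39 (1.15 to 1.63, adjusted p = 2.97e-09, limma). Hspd1 moved the other way, with 15.23, 15.21 and 15.28 in LPS cells, against 15.93, 15.81 and 15.86 in control cells. The groups did not overlap, at a difference of -0.63 (-0.90 to -0.36, adjusted p = 0.000492). Its partner Hspe1 differed by 0.04 (-0.30 to 0.38, adjusted p = 0.904), and the 2 groups overlapped.

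The remaining cytosolic chaperones were not called. Hsp90aa1, the stress-inducible HSP90, differed by 0.25 (0.02 to 0.48, adjusted p = 0.092, limma) and Hsph1 by 0.03 (-0.20 to 0.26, adjusted p = 0.879). The Hsp90aa1 arrays of the groups did not overlap. Hsp90aa1 passed in limma fits of only the features above the silent level (adjusted p = 0.0296) or with a variance trend and robust prior (adjusted p = 0.00376). Hsp90aa1 had group means from 16.13 to 16.92, in the upper part of the scale. In all, 4 of 7 heat shock genes were called, 3 higher and 1 lower, beside 33.7% of all features called between LPS and control cells (13.5% higher and 20.3% lower). The median difference was 0.25 over the 7 genes and 0.03 over all features.

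**Figure D2:**
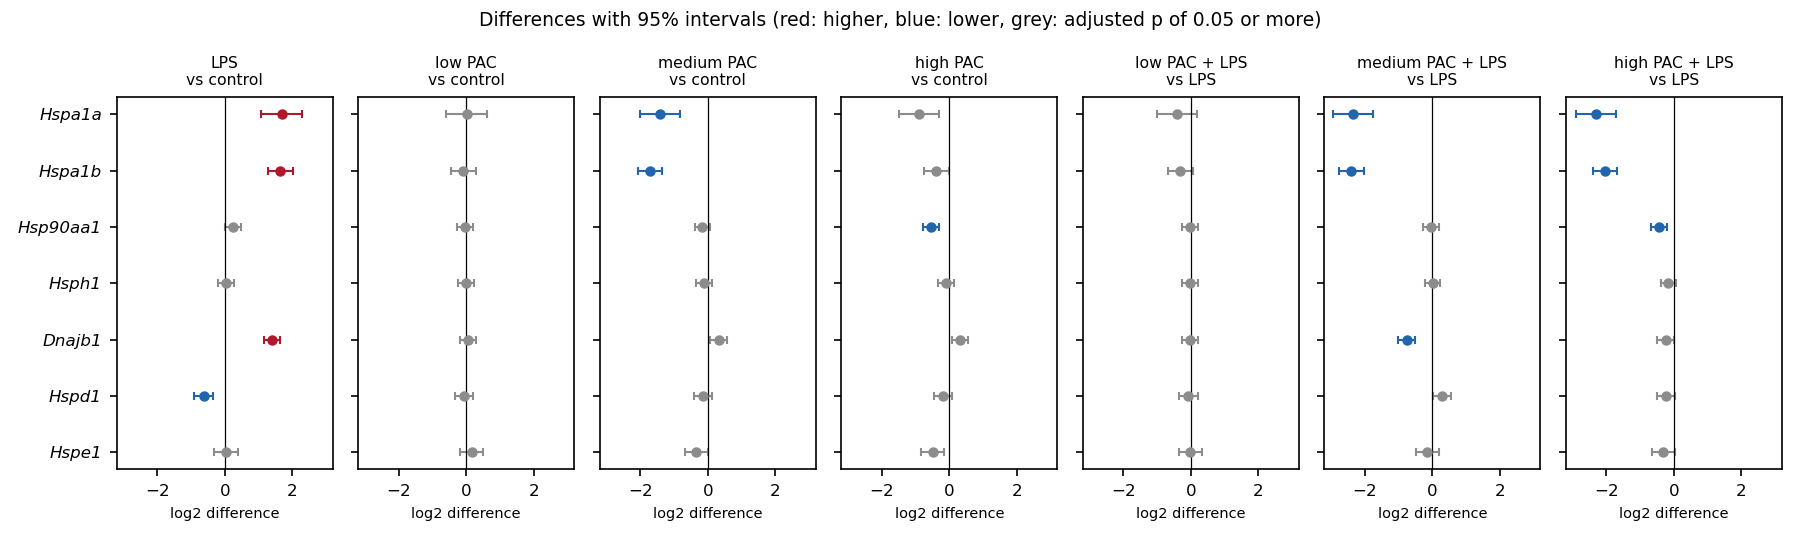
Differences (x axis, deposited log2 scale, first-named group minus the second) of the 7 heat shock genes (y axis) in 7 comparisons, with 95% intervals from the limma model. Red marks genes called higher, blue genes called lower and grey the rest. With medium PAC, Hspa1a and Hspa1b lay at -1.41 and -1.71 against control, and at -2.34 and -2.40 against LPS.

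In resting cells, which received no LPS, medium PAC lowered both HSP70 genes. Hspa1b gave 7.65, 7.22 and 7.67 with medium PAC, against 9.04, 9.40 and 9.24 in control cells. Hspa1a gave 8.14, 7.28 and 8.0 with medium PAC, against 9.02, 9.39 and 9.22 in control cells. Every medium PAC array lay below every control array for both genes. The differences were -1.71 (-2.08 to -1.35, adjusted p = 5.65e-07, limma) for Hspa1b and -1.41 (-2.00 to -0.81, adjusted p = 0.00193) for Hspa1a. These 2 were the only calls among the 7 genes, beside 11.3% of all features called between medium PAC and control. Dnajb1 gave 10.17, 10.14 and 10.43 with medium PAC, a difference of 0.32 (0.08 to 0.56) that missed the threshold (adjusted p = 0.0853), although no array overlapped with control.

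With high PAC in resting cells, Hsp90aa1 was lower and neither HSP70 copy was called. Hspa1a gave 8.71, 7.79 and 8.44 with high PAC, below all control arrays, at -0.90 (-1.5 to -0.30) and an adjusted p of 0.0681 (limma). Hspa1b gave 8.61, 8.88 and 9.04, of which the highest reached the lowest control array to 2 decimals, at -0.38 (-0.75 to -0.02, adjusted p = 0.254). Hsp90aa1 gave 16.20, 15.95 and 16.25 in high PAC cells, against 16.68, 16.66 and 16.66 in control cells. Its difference was -0.54 (-0.77 to -0.31, adjusted p = 0.00336), and it was the 1 call among 7 genes, beside 6.85% of all features called. Hspe1 differed by -0.49 (-0.83 to -0.15, adjusted p = 0.084).

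Some of these results depended on single arrays or on the 3 arrays with high Il1b. Without those 3, which leaves 1 high PAC array, Hsp90aa1 differed by -0.47 between high PAC and control (adjusted p = 0.12, limma), while Hspa1a and Hspa1b differed by -1.5 and -1.79 between medium PAC and control (adjusted p = 0.00416 and 7.9e-06). Hspa1a between high PAC and control passed without high PAC replicate 1 (-1.10, adjusted p = 0.0492) or without medium PAC + LPS replicate 2 (-0.90, adjusted p = 0.0293), and Hspe1 passed without high PAC replicate 2 (-0.63, adjusted p = 0.0421).

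Low PAC gave no call among the 7 genes in resting cells, with differences from -0.08 to 0.17 (0 also at an unadjusted p under 0.05, limma). Only 0.036% of all features were called between low PAC and control. For Hspa1b, the interval of the difference ran from -0.45 to 0.29.

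With LPS present, both medium PAC and high PAC lowered the HSP70 genes relative to LPS alone. Hspa1a gave 8.80, 7.84 and 9.01 with medium PAC + LPS and 8.85, 8.62 and 8.28 with high PAC + LPS, against 10.94, 10.76 and 10.99 with LPS alone. Hspa1b gave 8.14, 8.52 and 8.76 with medium PAC + LPS and 8.93, 8.96 and 8.62 with high PAC + LPS, against 10.96, 10.84 and 10.83 with LPS. All 6 arrays with these PAC and LPS lay well over 1 unit below the lowest LPS array in both genes. They also lay below the lowest control array of the same gene (9.02 for Hspa1a and 9.04 for Hspa1b), a difference that was not tested.

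Between medium PAC + LPS and LPS, Hspa1a differed by -2.34 (-2.94 to -1.75, adjusted p = 3.91e-06, limma) and Hspa1b by -2.40 (-2.77 to -2.04, adjusted p = 2.61e-09). Dnajb1 was the third call, with 10.60, 10.56 and 10.51 in medium PAC + LPS cells, against 11.44, 11.28 and 11.23 in LPS cells. Its difference was -0.76 (-1.01 to -0.52, adjusted p = 5.43e-05). The 3 calls of 7, all lower, stood beside 14.6% of all features called (7.47% lower). Hsp90aa1 and Hsph1 differed by -0.03 (-0.26 to 0.20) and 0.01 (-0.22 to 0.24), neither called.

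Between high PAC + LPS and LPS, Hspa1a differed by -2.31 (-2.91 to -1.71, adjusted p = 1.38e-05, limma) and Hspa1b by -2.04 (-2.40 to -1.67, adjusted p = 1.42e-07). Hsp90aa1 gave 16.40, 16.56 and 16.48 with high PAC + LPS, against 16.82, 16.95 and 16.99 with LPS, a difference of -0.44 (-0.67 to -0.21, adjusted p = 0.0119). This call was lost without LPS replicate 3 (adjusted p = 0.0562) or without high PAC + LPS replicate 1 (adjusted p = 0.0536), at differences of -0.41 and -0.40. Dnajb1 gave 11.11, 11.11 and 11.00 with high PAC + LPS and differed by -0.25 (adjusted p = 0.212). The calls were again 3 of 7, all lower, beside 10.1% of all features called (5.74% lower). In all 7 genes, no high PAC + LPS array overlapped with an LPS array, beside 25.1% of all features.

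With low PAC + LPS, no gene was called against LPS (0 also at an unadjusted p under 0.05, limma), and 0.149% of all features were. Hspa1a gave 10.64, 10.63 and 10.19, a difference of -0.41 (-1.01 to 0.19). Hspa1b gave 10.74, 10.53 and 10.42, a difference of -0.32 (-0.68 to 0.05). In both genes every low PAC + LPS array lay below every LPS array, beside 12.9% of all features without overlap. The comparisons with LPS share the LPS arrays, and those with control share the control arrays.

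The PAC fractions were compared with each other at equal mass and time, in 3 pairs in resting cells and 3 pairs with LPS. Polymers of a higher degree of polymerization have fewer molecules in the same mass. In resting cells, 5 of 21 tests of the 7 genes were called. Medium PAC lay below low PAC in Hspa1b (-1.63, -2.00 to -1.26, adjusted p = 1.44e-06, limma) and Hspa1a (-1.42, -2.02 to -0.82, adjusted p = 0.00209), beside 8.74% of all features called. Medium PAC also lay below high PAC in Hspa1b, with 7.65, 7.22 and 7.67 in medium PAC cells, against 8.61, 8.88 and 9.04 in high PAC cells. That difference was -1.33 (-1.70 to -0.96, adjusted p = 0.000133), beside 2.27% of features called. In Hspa1a the same pair differed by -0.51, with an interval of -1.11 to 0.09 (adjusted p = 0.542), so the 2 copies did not give the same call, and whether they differed from each other was not tested.

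High PAC lay below low PAC in Hsp90aa1 (-0.50, -0.73 to -0.27, adjusted p = 0.00896, limma) and in Hspe1 (-0.66, -1.0 to -0.31, adjusted p = 0.0216), beside 4.88% of features called. Hspe1 gave 12.49, 12.66 and 12.01 with high PAC, against 13.17, 12.84 and 13.11 with low PAC, so the groups did not overlap. Without the 3 arrays with high Il1b, the differences were -0.43 for Hsp90aa1, -0.55 for Hspe1 and -1.17 for Hspa1b between medium and high PAC (adjusted p = 0.209, 0.247 and 0.0632). The Hsp90aa1 call was also lost without low PAC replicate 1 or high PAC replicate 2 (adjusted p = 0.0575 and 0.0661), and the Hspe1 call without low PAC replicate 1, low PAC replicate 3 or high PAC replicate 3 (adjusted p = 0.105, 0.0854 and 0.127).

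With LPS, 9 of 21 such tests were called. Medium PAC + LPS lay below low PAC + LPS in Hspa1a (-1.93, adjusted p = 5.35e-05, limma), Hspa1b (-2.09, adjusted p = 2.8e-08) and Dnajb1 (-0.74, adjusted p = 0.000103), beside 12.5% of features called. High PAC + LPS lay below low PAC + LPS in Hspa1a (-1.90, adjusted p = 0.000211), Hspa1b (-1.72, adjusted p = 3.3e-06) and Hsp90aa1 (-0.42, adjusted p = 0.0212), beside 6.99% of features. The last call was lost without replicate 1 or 3 of low PAC + LPS or of high PAC + LPS (adjusted p from 0.0585 to 0.0838).

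Medium PAC + LPS and high PAC + LPS did not differ detectably in the HSP70 genes, at -0.03 (-0.63 to 0.57) for Hspa1a and -0.37 (-0.73 to 0.00) for Hspa1b. They differed in Dnajb1, with 10.60, 10.56 and 10.51 in medium PAC + LPS cells, against 11.11, 11.11 and 11.00 in high PAC + LPS cells (-0.52, -0.76 to -0.28, adjusted p = 0.0095, limma). Hspd1 gave 15.29, 15.68 and 15.58 with medium PAC + LPS, against 14.85, 15.09 and 15.05 with high PAC + LPS (0.52, 0.25 to 0.79, adjusted p = 0.0206). Hsp90aa1 was also higher with medium PAC + LPS (0.41, 0.18 to 0.64, adjusted p = 0.0326), and 5.37% of all features were called in this pair. With only the groups compared in the fit, none of these 3 calls held (adjusted p = 0.182 for Dnajb1, 0.274 for Hspd1 and 0.291 for Hsp90aa1). The Hspd1 call was lost without medium PAC + LPS replicate 2 or 3 or high PAC + LPS replicate 1 (adjusted p from 0.0794 to 0.0984), and the Hsp90aa1 call without any of 5 of the 6 arrays compared (adjusted p from 0.0598 to 0.109).

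The response to LPS was then read within each PAC, a comparison added after the values were known. Low PAC + LPS lay above low PAC by 1.26 in Hspa1a, 1.41 in Hspa1b and 1.31 in Dnajb1, and below it by a difference of -0.64 in Hspd1 (adjusted p = 0.00128, 1.14e-06, 7.88e-09 and 0.000424, limma), beside 34.8% of all features called. Hsp90aa1 differed by 0.27 there (0.04 to 0.50, adjusted p = 0.063) and was not called. With medium PAC, Hspa1b was higher by 0.96 (0.59 to 1.32, adjusted p = 0.000196) and Hsp90aa1 by 0.38 (adjusted p = 0.0124), while Dnajb1 differed by 0.31 (0.07 to 0.55, adjusted p = 0.0533), beside 28% of features called. Hspa1a differed by 0.75 (adjusted p = 0.0586).

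With high PAC, the HSP70 genes gave no detectable response. Hspa1b averaged 8.84 ± 0.19 with high PAC + LPS and 8.84 ± 0.22 with high PAC (SD, n = 3 each), a difference of -0.01 (-0.37 to 0.36, adjusted p = 0.984, limma). Hspa1a differed by 0.27 (-0.33 to 0.87, adjusted p = 0.531). Dnajb1 was still higher with high PAC + LPS than with high PAC, by 0.82 (0.58 to 1.06, adjusted p = 6.68e-06), Hsp90aa1 was higher by 0.35 (adjusted p = 0.0181), and Hspd1 was lower, at -0.69 (adjusted p = 0.000212), beside 33.6% of features called. Of these, Hsp90aa1 lost its call without high PAC replicate 2 (0.26, adjusted p = 0.113) or high PAC + LPS replicate 2 (0.31, adjusted p = 0.0702), with arrays centred on the gene median (0.23, adjusted p = 0.136) and with the 3 high Il1b arrays left out (0.28, adjusted p = 0.216), and in medium PAC cells without medium PAC replicate 1 (0.34, adjusted p = 0.051). The call for Dnajb1 in medium PAC cells was gained without medium PAC replicate 3 (0.40, adjusted p = 0.0209), and that for Hspa1a without medium PAC replicate 1, high PAC replicate 2 or medium PAC + LPS replicate 2 (adjusted p = 0.0396, 0.0432 and 0.00397).

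**Figure D3:**
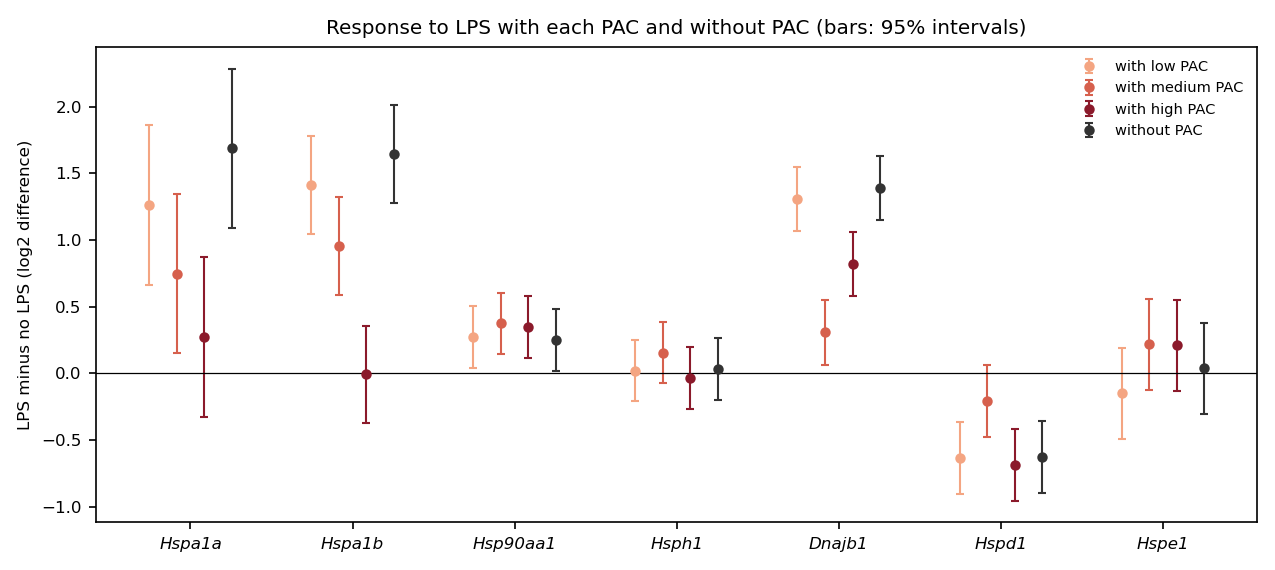
Difference between cells with and without LPS (y axis, deposited log2 scale) for the 7 heat shock genes (x axis), for each PAC and for cells without PAC. Points are differences of group means and bars are 95% intervals. Hspa1b lay at 1.41, 0.96 and -0.01 with low, medium and high PAC and at 1.65 without PAC, and Dnajb1 at 1.31, 0.31 and 0.82 and at 1.39.

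The interaction of each PAC with LPS, the effect of PAC with LPS minus its effect in resting cells, tests whether those responses differed. It was called for Dnajb1 with medium PAC (-1.08, -1.43 to -0.74, adjusted p = 0.000158, limma) and for Hspa1b with high PAC (-1.66, -2.17 to -1.14, adjusted p = 0.00058). These were 2 of 21 tests, with 6.29% and 1.91% of all features called for medium and high PAC. For Hspa1a the interaction was -1.41 with high PAC (-2.26 to -0.57, adjusted p = 0.0903) and -0.94 with medium PAC (adjusted p = 0.229). The first of these passed without high PAC replicate 2 (-1.67, adjusted p = 0.0415) or medium PAC + LPS replicate 2 (-1.41, adjusted p = 0.0386). Dnajb1 with high PAC gave -0.57 (adjusted p = 0.0897). For Hsp90aa1 the interaction was 0.13 with medium PAC and 0.10 with high PAC (adjusted p = 0.783 and 0.892, limma). Its response to LPS was thus not detectably different with these PAC and without PAC. With low PAC, no gene passed (0 also at an unadjusted p under 0.05) and 0% of all features did.

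Over the 8 groups, the levels of Hspa1a ran in the order LPS (10.90), low PAC + LPS (10.49), low PAC (9.22), control (9.21), high PAC + LPS (8.59), medium PAC + LPS (8.55), high PAC (8.31) and medium PAC (7.80). The arrays of neighbouring groups overlapped from low PAC to control and from high PAC + LPS down to medium PAC, and the other neighbours in the order did not overlap. For Hspa1b the order was LPS (10.88), low PAC + LPS (10.56), control (9.23), low PAC (9.15), high PAC (8.84), high PAC + LPS (8.84), medium PAC + LPS (8.47) and medium PAC (7.52). Here neighbours overlapped from control down to medium PAC + LPS, and medium PAC stood below all other groups. In Dnajb1 all 4 groups with LPS (10.55 to 11.32) stood above all 4 without (9.93 to 10.25), so its order did not follow that of the HSP70 genes. Hsph1 was the least variable, with group means from 14.48 to 14.65 and no call in any comparison.

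Pearson correlations over the 12 arrays without LPS and the 12 with LPS describe which genes ran alongside, with arrays shared by all genes and group differences included. Hspa1a and Hspa1b correlated at 0.83 without LPS and 0.96 with LPS. Hspa1a and Dnajb1 correlated at -0.61 without LPS and 0.76 with LPS, so the pair moved in opposite directions among resting arrays. Among 11300 features above the silent level, ranked by the lower of both correlations, the closest to Hspa1b were Marveld1 (0.96 without LPS and 0.95 with LPS), Mitf (0.95 and 0.95), a transcription factor of lysosomal and pigment genes, and Smpdl3b (0.96 and 0.94). The closest to Hspa1a were Tmem170b (0.94 and 0.98), D8Ertd738e (0.91 and 0.95) and Ms4a6c (0.91 and 0.95). The closest to Dnajb1 were the phosphate transporter gene Slc20a1 (0.89 and 0.94), the chemokine gene Ccl4 (0.85 and 0.94) and the cholesterol exporter gene Abca1 (0.85 and 0.98). The closest to Hspd1 were Dnaja2 (0.82 and 0.83), an HSP70 cochaperone, Larp4 (0.75 and 0.77) and Mvk (0.82 and 0.75). The closest to Hspe1 was Tmem42 (0.86 and 0.88), followed by the respiratory chain genes Cox7b (0.82 and 0.80) and Ndufb4 (0.79 and 0.82).

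The other chaperone genes were read from 6 lists of 75 genes, of which 71 were measured. Between LPS and control, 13 were higher and 19 lower, beside 13.5% of all features higher and 20.3% lower, with a median difference of -0.08, against 0.03 over all features. Among HSP70 partners (2 higher and 5 lower of 14), Bag2, an HSP70 cochaperone, averaged 5.64 with LPS and 10.68 in control cells (-5.04, adjusted p = 4.35e-13, limma). The Bag2 level with LPS lay close to the negative control medians of 4.76 to 5.12. Bag3, the exchange factor that is itself an HSF1 target, was higher (0.55, adjusted p = 0.00131). Among J-domain proteins (4 higher and 4 lower of 12), Dnajb14, anchored in the endoplasmic reticulum membrane, gave the lowest difference (-2.25, adjusted p = 2.28e-07). Among small heat shock proteins (1 lower of 8, of which 2 were above the silent level in some group), Hspb6 was lower (-2.45, adjusted p = 3.14e-07).

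With medium PAC and with high PAC, 0 of these 71 genes were higher and 8 lower than in control cells. In either direction, the share of all features called was 11.3% with medium PAC, the same as in these lists. With high PAC it was 6.85%, lower than in these lists, a difference that was not tested. All calls in the lists were lower, and they were not compared with the share of all features called lower. The medians were -0.21 and -0.17 against 0.00 and 0.01 over all features. Dnajc2, a J-domain protein of the ribosome exit, gave -0.79 with medium PAC and -1.15 with high PAC (adjusted p = 0.000116 and 2.64e-06, limma). Hspa4l, an HSP110 gene, gave -0.67 and -0.95 (adjusted p = 0.033 and 0.00413). Dnajc19, of the mitochondrial protein import motor, gave -0.75 and -0.77 (adjusted p = 0.0033 and 0.00426). Among HSP90 cochaperones (3 of 14 lower with medium PAC and 2 of 14 with high PAC), Cacybp gave -0.57 and -0.72.

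With LPS present, 3 of the 71 genes were higher and 6 lower with medium PAC + LPS, and 0 higher and 8 lower with high PAC + LPS. Counted in either direction, the lists lay near the share of all features called, 14.6% with medium PAC + LPS and 10.1% with high PAC + LPS. The shares of all features called lower were 7.47% and 5.74%. Whether the lists differ from these shares was not tested. Bag3 was lower with medium PAC + LPS than with LPS, at 12.36 and 12.82 (-0.46, adjusted p = 0.0143, limma). The HSP90 cochaperone Fkbp5, which also binds steroid receptors, was lower with medium PAC + LPS (-0.60, adjusted p = 0.0194), and Cacybp was lower with both, at -0.60 with medium PAC + LPS and -0.76 with high PAC + LPS. Dnajb14 (0.93) and Grpel2 (0.88), a nucleotide exchange factor of mitochondrial HSP70, were higher with medium PAC + LPS. So was Clpp, of the list of mitochondrial chaperones and proteases (0.51, adjusted p = 0.0312, limma). Dnajc2 was lower with both, at -0.55 with medium PAC + LPS (adjusted p = 0.00315) and -0.80 with high PAC + LPS (adjusted p = 0.000135). Hspb6 was lower with high PAC + LPS (-0.99, adjusted p = 0.0254, limma), at 5.71 against 6.70 with LPS, but the arrays overlapped. Its lowest high PAC + LPS array, 4.85, lay close to the silent level of 4.73. The Hspb6 mean with low PAC + LPS was 5.74, so the lower level was not particular to high PAC. Bag3, Cacybp and Dnajc2 lie outside the rule for naming genes in some comparisons and were chosen after their values were seen. The same holds for Mt1 and Sirt1 between LPS and control and for P4hb between medium PAC and control, given further below.

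**Figure D4:**
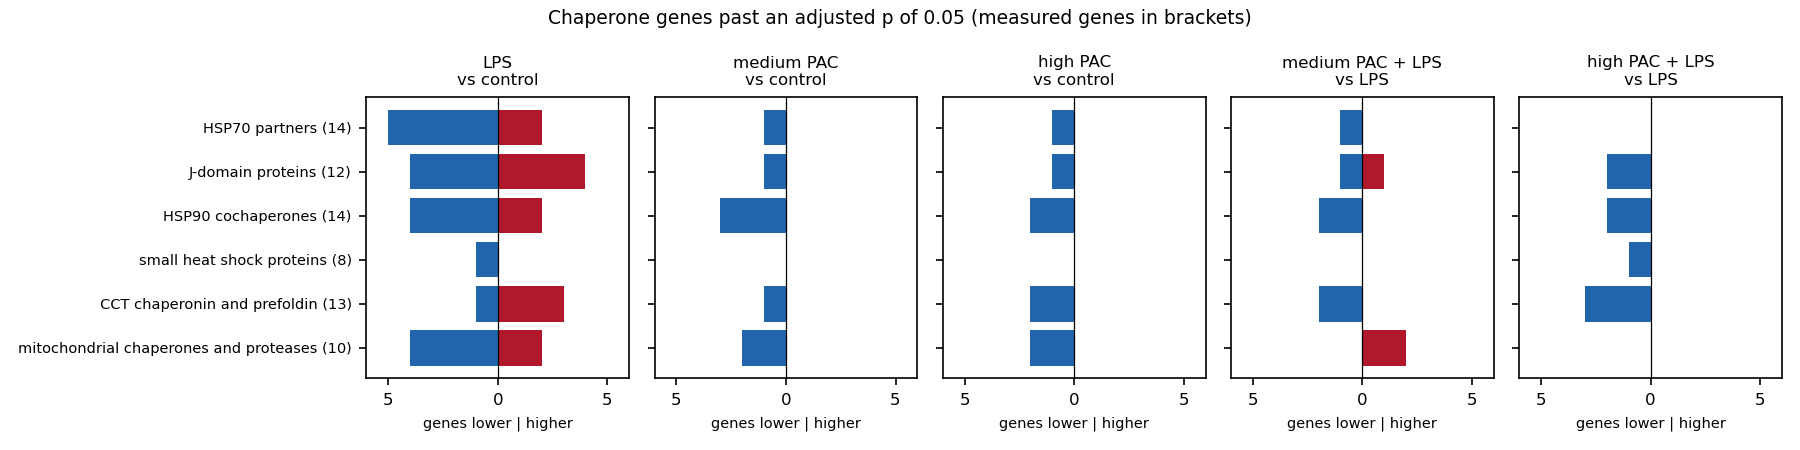
Number of genes of 6 chaperone lists (y axis, measured genes in brackets) called lower (blue, left) or higher (red, right) in 5 comparisons (x axis, number of genes). LPS called 13 genes higher and 19 lower than control, and the panels for medium and high PAC against control hold 8 lower genes each and none higher. In these 3 comparisons, 33.7%, 11.3% and 6.85% of all features were called in either direction. For medium and high PAC, the lower genes were not compared with the share of all features called lower.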

How the data were processed

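RNA of 24 RAW264.7 samples was hybridised to Clariom S mouse arrays. The authors deposited log2 values for 28846 features, made with Transcriptome Analysis Console. How signals were summarised and corrected for background is not stated in the sources used here. Control features were left out, which left 22206 gene features, named from the platform table for 19572 of them. No filter or further normalization was applied. Groups came from the sample titles and treatment labels. A limma 3.58.1 model (R 4.3.3) held 24 arrays with 1 mean per group, and p-values were two-sided and adjusted within each comparison. Positive control medians exceeded negative control medians by 6.11 to 6.65, replicates correlated at 0.989 to 0.994, and the number of arrays limits the precision. The model was run on simulated data with independent normal noise. Such data meet its assumptions, so that run cannot test them. Alternatives for the heat shock genes varied the normalization, filter, samples, variance prior, array weights and replicate number. Heat shock genes, gene lists, the rule for naming genes (up to 3 highest and 3 lowest called list genes in each of 7 comparisons) and tests were chosen with earlier results of these data known.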

Additional observations from a re-analysis of the deposited data

Results flagged for a closer look

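The effect of PAC differed between cells with and without LPS for 2 heat shock genes, by the interaction test of the limma model. For Dnajb1, the interaction of medium PAC with LPS was -1.08 (adjusted p = 0.000158). Medium PAC + LPS minus LPS gave -0.76, and medium PAC minus control gave 0.32. For Hspa1b, the interaction of high PAC with LPS was -1.66 (adjusted p = 0.00058). High PAC + LPS minus LPS gave -2.04, and high PAC minus control gave -0.38. Without the 3 resting arrays with high Il1b, the interactions were -0.99 for Dnajb1 and -1.42 for Hspa1b (adjusted p = 0.00156 and 0.0352). That leaves 2 medium PAC arrays and 1 high PAC array, which is assumed to vary like the arrays of the other groups. Groups of 3 arrays were not tested for single arrays that stand apart.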

How the results depend on the processing

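The differences of the measured heat shock genes were recomputed under 32 settings, 24 of which left out 1 array. The gene lists, the genes named from them, the correlations and the markers were not recomputed. Of 38 called differences, 27 kept their call under every setting and 11 lost it under at least 1. None of these settings reversed the direction of a called difference, and of 95 differences not called, 16 passed under at least 1 setting and 29 changed sign without passing. The number of heat shock genes called between high PAC and control was 1, and became 2 with quantile normalization, 4 with features above the silent level only, 0 with only the groups compared, 3 with a variance trend and robust prior, 2 with array weights and 0 without the 3 arrays with high Il1b. Between PAC fractions in resting cells, 5 calls became 8 with features above the silent level only, 2 with only the groups compared, 8 under a trended variance with robust prior and 2 without the 3 arrays with high Il1b. With LPS, 9 calls became 5 with only the groups compared. For the interaction, 2 calls became 4 with features above the silent level only and 4 under a trended variance with robust prior. Fits of only the groups compared hold fewer arrays. In the other cases the cause was not tested. Leaving out 1 array gave 1 to 2 calls between high PAC and control, 2 to 3 between high PAC + LPS and LPS, 3 to 6 between PAC fractions in resting cells, 6 to 10 between them with LPS and 2 to 3 for the interaction, and changed no count for LPS (4), low PAC (0), medium PAC (2), low PAC + LPS (0) or medium PAC + LPS (3). No pairing by replicate number was seen over all gene features. Deviations from the group means correlated at -0.07 to 0.08 between groups with the same number, and 8 of 24 arrays correlated best with their own number. Pairing among expressed genes alone was not tested. With the replicate block, 1 call was lost (Hsp90aa1 between medium PAC + LPS and high PAC + LPS, 0.41, adjusted p = 0.0511, limma), and Hspa1b between medium PAC and control gave -1.71 (adjusted p = 2.26e-06). Each heat shock gene has 1 feature, so the settings on several features per symbol were not run. High signals, as for Hsp90aa1, may hide differences, and 3 arrays a group limit what could be detected.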

Other observations

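Mt1 and Mt2, which bind zinc and copper, averaged 18.13 and 18.39 with LPS and 16.98 and 14.68 in control cells (1.16 and 3.71, adjusted p = 1.01e-08 and 5.31e-14, limma). Mt1 was also higher than in control cells with medium PAC (0.54, adjusted p = 0.00113) and with high PAC (0.38, adjusted p = 0.0274), where Hspa1a and Hspa1b were lower or not called. Mt2 was higher with high PAC (0.57, adjusted p = 0.0284). Metallothionein genes numbered 4 measured, with 3 higher with LPS, 1 with medium PAC and 2 with high PAC, beside 13.5% of all features higher with LPS and 11.3% and 6.85% called in either direction with medium and high PAC.

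Of 14 endoplasmic reticulum chaperone genes, 3 were higher and 2 lower with LPS than in control cells, near the 33.7% of all features called. Dnajb9, a J-domain protein of the unfolded protein response, gave 3.24 with LPS (adjusted p = 3.37e-14, limma) and 0.60 with medium PAC (adjusted p = 0.00352). P4hb, a protein disulfide isomerase, gave 0.44 with medium PAC and 0.48 with high PAC (adjusted p = 0.00537 and 0.00421), and Creld2 gave 0.51 with medium PAC. Dnajc3, a J-domain inhibitor of kinases that block translation, was lower than with LPS alone in medium PAC + LPS (-0.75, adjusted p = 5.04e-05) and in high PAC + LPS (-0.77, adjusted p = 8.44e-05).

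Among 10 listed regulators of HSF1, 2 were higher and 2 lower with LPS, beside 33.7% of all features called. Daxx, a transcriptional corepressor that acts on HSF1 in human cells, averaged 15.26 with LPS and 11.12 in control cells (4.14, adjusted p = 7e-15, limma). Sirt1, a deacetylase that acts on HSF1, was lower with LPS (-0.55, adjusted p = 0.0152) and higher with high PAC + LPS than with LPS (0.73, adjusted p = 0.00756).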
